A study of Caenorhabditis elegans with 6 samples.

Results

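Hydrogen peroxide and oxidised protein thiols are reduced by enzyme relays that draw electrons from NADPH. The genes described here are 8 components of the thioredoxin and glutathione relays of Caenorhabditis elegans: the peroxiredoxin genes prdx-2 and prdx-3, the thioredoxin genes trx-1 and trx-2, the thioredoxin reductase genes trxr-1 and trxr-2, the glutamate-cysteine ligase gene gcs-1 and the glutathione reductase gene gsr-1. They were taken by public gene name from a table of 20422 genes, and all 8 names were found. RNA came from sterile whole adults of 2 genotypes, with 3 samples of 100 hand-picked worms each. The first, strain SS1224, combined daf-2(e1370) on chromosome III with mes-1(bn84ts) on chromosome X; in this double mutant, written daf-2; mes-1, the receptor for insulin-like peptides works less well. The other, strain SS0415, carried mes-1(bn84ts) X alone. Both carry the temperature-sensitive mes-1 allele that leaves adults without a germline, so neither is wild type and each genotype is a single strain. Embryos of both were laid at 24°C and moved to 15°C on day 1, and the adults were returned to 24°C on day 5 and collected on day 6.

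In a peroxiredoxin, a reactive cysteine is oxidised by peroxide. A thioredoxin reduces it again, and a thioredoxin reductase recharges the thioredoxin with NADPH. Glutathione, the small thiol used by glutathione peroxidases, glutaredoxins and glutathione transferases, is made from glutamate, cysteine and glycine, and its oxidised form is recycled by glutathione reductase. In worms the insulin receptor pathway acts through the kinases AKT-1, AKT-2 and SGK-1, which hold back the transcription factors DAF-16 and SKN-1. SKN-1, the worm relative of the Nrf factors, induces many thiol and detoxification genes, and gcs-1 is used as a reporter of its activity.

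The table gives 1 comparison made by the authors and no values for single samples. Log2 fold changes set daf-2; mes-1 against mes-1, so positive values are higher in daf-2; mes-1. RPKM, a read count scaled by gene length and library size, is given once per genotype, without an SD. A gene is called here when the adjusted p from the authors' DESeq2 test is under 0.05. Calls were made for 1009 (10.3%) of the 9820 genes with an adjusted p, and by direction for 385 (3.92%) as higher and 624 (6.35%) as lower in daf-2; mes-1 adults. Nothing in the labels ties the samples to separate cultures, and the p-values then cover no more than the variation among these samples, possibly technical. Library totals are unknown, but the worth of a single read in each library could be recovered from the lowest means, and the deepest library had 3.06 times the depth of the shallowest. Letters a to c name the libraries of a genotype from the deepest to the shallowest, since their replicate numbers cannot be told. Library a of each genotype held most of the reads of 3 germline markers with few reads (htp-3, him-3 and puf-8): 29, 4 and 0 reads in daf-2; mes-1 libraries a, b and c, and 54, 7 and 1 in mes-1 libraries a, b and c. Reads of germline markers were thus present in both genotypes, and their part in the values below was not tested.

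None of the 8 redox genes was called in either direction. Of the 7 with an adjusted p, 0 were called by DESeq2 against 10.3% of all genes with one, with adjusted p-values from 0.174 to 0.954. At an unadjusted p under 0.05, bounded from the adjusted values, 1 of the 7 passed (gsr-1), against 18.0% of all genes. The 7 log2 fold changes lay between -0.51 and 0.36. The median over all 8 genes was 0.06, and it was -0.02 over the 16908 genes with a fold change. The sign of the median of the 8 genes was not stable, since RPKM ratios put it at -0.05 to -0.01, depending on the pseudocount. The members split evenly, with positive values for prdx-3, trx-2, trxr-1 and trxr-2 and negative values for prdx-2, trx-1, gcs-1 and gsr-1. The 95% intervals given below come from the bounded p and are at least as wide as those of a normal test. For 6 of the 7 genes the interval lay within 1 of 0 on the log2 scale, that is, inside a doubling or halving. The exception was trxr-2.

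**Figure D1:**
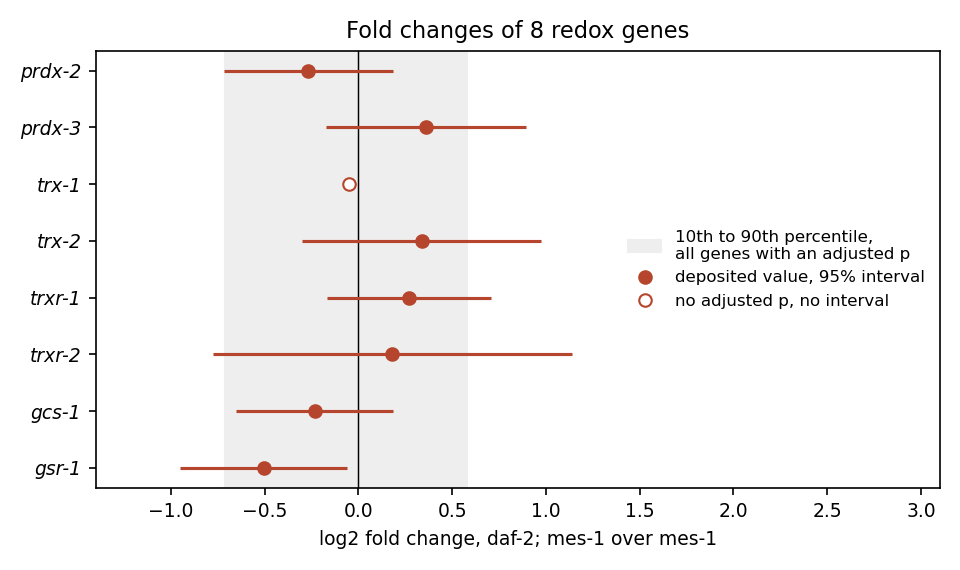
Log2 fold change from the authors' deposited table, daf-2; mes-1 against mes-1, for each of the 8 redox genes (points) with the 95% interval derived from the bounded p (lines); the grey band spans the 10th to 90th percentile of all genes with an adjusted p, -0.71 to 0.58. All points lie inside the band, and the interval of gsr-1, from -0.95 to -0.06, is the only one that does not cross 0 before adjustment.

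Levels per length differed far more between the genes than between the genotypes. In the authors' deposited table the order in daf-2; mes-1 adults, by RPKM, was prdx-2, prdx-3, gsr-1, trxr-1, gcs-1, trx-2, trxr-2 and trx-1. In mes-1 adults the order was the same except that gcs-1 stood above trxr-1. The RPKM values carry no spread, so whether such neighbours differ cannot be tested. Summed over the 8 genes, RPKM came to 1102 in daf-2; mes-1 and 1253 in mes-1, and prdx-2 made up 68.9% of the sum in daf-2; mes-1 and 73.7% in mes-1.

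**Figure D2:**
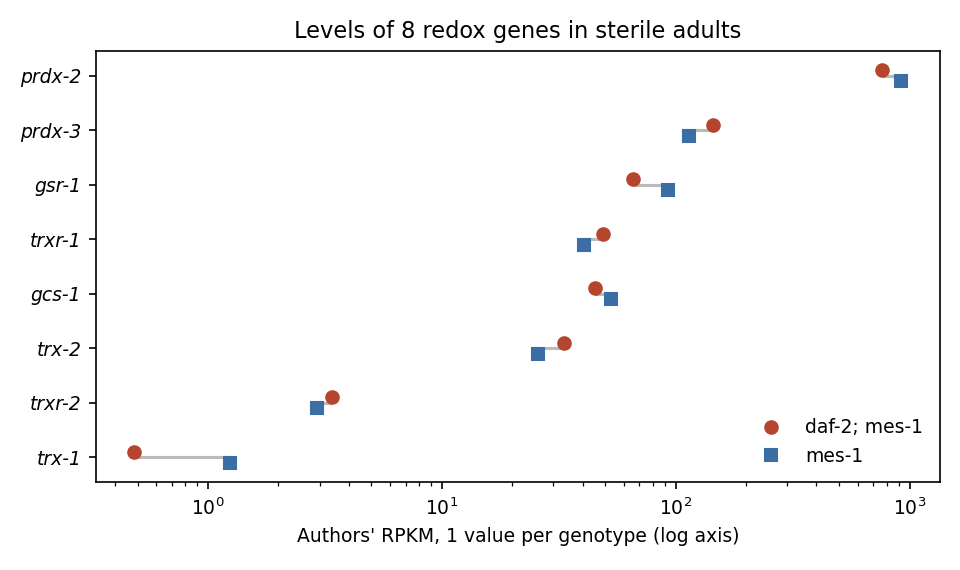
RPKM of the 8 redox genes on a log axis, with 1 value per genotype from the authors' deposited table (circles, daf-2; mes-1; squares, mes-1). From prdx-2 at 760 and 923 RPKM to trx-1 at 0.48 and 1.25 RPKM (daf-2; mes-1 and mes-1), the genes span about 3 orders of magnitude, while the pair of points of each gene other than trx-1 lie close together.

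The peroxiredoxin transcripts were the most abundant of the set. The gene prdx-2 (WBGene00006434, F09E5.15) encodes a typical peroxiredoxin needed for normal peroxide resistance in worms. It lies on chromosome II from 5378046 to 5379619, on the forward strand, in the table's own build, which the sources used here do not name. Ensembl release 115 lists 3 transcripts for it. Its RPKM was 760 in daf-2; mes-1 and 923 in mes-1 in the authors' deposited table, above 99.0% of all genes in daf-2; mes-1 and 99.1% in mes-1. The authors' deposited table gave a log2 fold change of -0.27 (DESeq2 adjusted p = 0.706), with an interval of -0.72 to 0.18. For this abundant gene the interval ran from 0.61 to 1.14 times the mes-1 level, and it covers no more than the variation among these samples.

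The gene prdx-3 (WBGene00011110, R07E5.2) encodes the mitochondrial peroxiredoxin and lies on chromosome III from 4407414 to 4408409. Its RPKM was 145 in daf-2; mes-1 and 114 in mes-1, and its log2 fold change was 0.36 (DESeq2 adjusted p = 0.621) in the authors' deposited table, with an interval of -0.17 to 0.89. The sign was thus opposite to that of prdx-2, and the ratio of prdx-2 to prdx-3 RPKM was 5.24 in daf-2; mes-1 and 8.13 in mes-1. The difference between these genes in their response was not tested. The third worm peroxiredoxin gene, prdx-6, was less abundant, at 15.3 RPKM in daf-2; mes-1 and 13.6 in mes-1, and had a log2 fold change of 0.31 (DESeq2 adjusted p = 0.878) in the authors' deposited table.

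The thioredoxin genes differed widely in level. The gene trx-2 (WBGene00007099, B0024.9), which encodes a mitochondrial thioredoxin, lies on chromosome V from 10314616 to 10315751, on the forward strand. For this gene the authors' deposited table gave 33.2 RPKM in daf-2; mes-1 and 25.7 in mes-1, a log2 fold change of 0.34 and an adjusted p of 0.762 (DESeq2), and the interval ran from -0.30 to 0.98. In Ensembl release 115, 47 of its 522 exonic bases lie opposite exons of asps-1, and the library kit named in the labels does not mark strand. In the authors' deposited table asps-1 had a log2 fold change of -0.28, with the other sign.

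The gene trx-1 (WBGene00015062, B0228.5) encodes a thioredoxin reported in the ASJ pair of sensory neurons, where it has been tied to adult lifespan. It lies on chromosome II from 7752517 to 7753554, on the reverse strand. Its mean was 0.84 normalized counts in the authors' deposited table, which gives it no adjusted p. That mean corresponds to a single combination of whole reads, 6 in all. They were 3, 0 and 0 reads in daf-2; mes-1 libraries a, b and c, and 1, 2 and 0 reads in mes-1 libraries a, b and c. As normalized counts these were 2.17, 0 and 0 in daf-2; mes-1, and 0.56, 2.33 and 0 in mes-1, so the genotypes overlapped and 3 of the 6 libraries held no read. The means were 0.72 ± 1.25 in daf-2; mes-1 and 0.96 ± 1.22 in mes-1 (SD, n = 3 each). Without library a of each genotype, 0 reads were left in daf-2; mes-1 and 2 in mes-1. With 3 reads per genotype, a difference in trx-1 was not detectable at this depth. The RPKM of trx-1 in the authors' deposited table was 0.48 in daf-2; mes-1 and 1.25 in mes-1, a log2 ratio of -1.36, against -0.41 for the means of the recovered reads. The RPKM values come from another tool than the counts, and the cause of this gap was not tested. In the annotation, 95 of its 639 exonic bases lie opposite exons of cpna-2, whose mean was 604 normalized counts per the authors' deposited table.

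Most genes taken as markers of the ASJ neurons also had few reads. Of 7 genes taken as ASJ markers (ssu-1, gpa-9, daf-28, ins-6, tax-2, tax-4 and daf-11), 2 had an adjusted p, daf-28 and ins-6, and 0 were called by DESeq2; neither had an unadjusted p under 0.05. Expression of the 7 genes in other cells was not examined, so they are no measure of ASJ alone. Per the authors' deposited table, their RPKM summed to 32.97 in daf-2; mes-1 and 22.95 in mes-1. Most of both sums came from the insulin-like peptide genes daf-28 (10.2 RPKM in daf-2; mes-1 and 10.5 in mes-1) and ins-6 (18.8 RPKM in daf-2; mes-1 and 9.71 in mes-1) of the authors' deposited table. Per the authors' deposited table, the RPKM of tax-4 was listed at 0 in daf-2; mes-1, although 1 read was recovered there, in library a. The sulfotransferase gene ssu-1, which is expressed in ASJ, had 11, 2 and 3 reads in daf-2; mes-1 libraries a, b and c, and 6, 1 and 2 in mes-1 libraries a, b and c. As normalized counts, the genotypes again overlapped, at 1.87 to 7.95 in daf-2; mes-1 and 1.16 to 3.36 in mes-1. In RNA of whole worms, fewer cells of a type and less RNA per cell cannot be told apart.

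**Figure D3:**
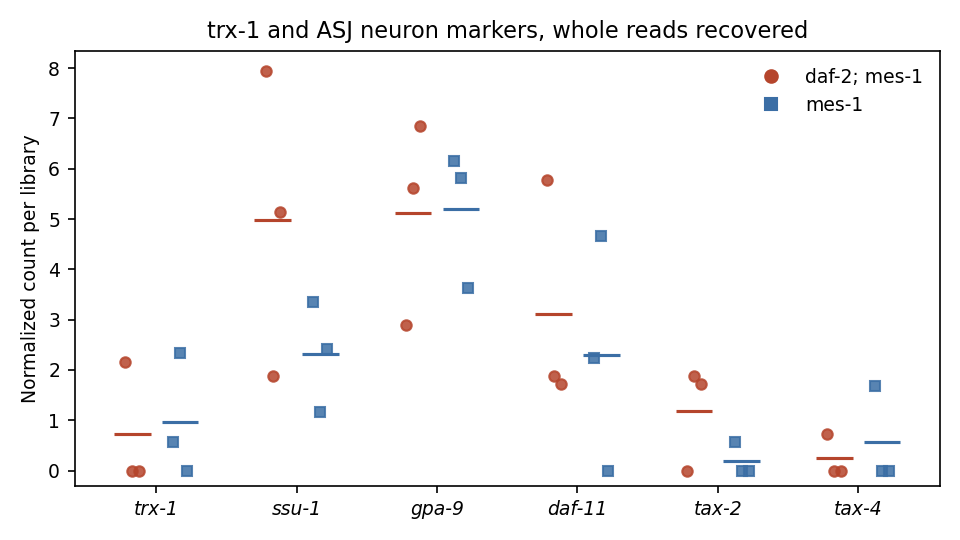
Normalized counts of trx-1 and of 5 genes taken as ASJ neuron markers in each library (points; circles, daf-2; mes-1; squares, mes-1), from whole reads recovered from the deposited means, with bars at the mean of 3 libraries. The 6 libraries lie between 0 and 2.33 for trx-1, and the points of the genotypes overlap for all 6 genes.

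Both thioredoxin reductase genes had positive values that did not pass the test. The gene trxr-1 (WBGene00015553, C06G3.7), on chromosome IV from 7011992 to 7016569, encodes the cytosolic enzyme, the only known selenoprotein of C. elegans. It had 49.1 RPKM in daf-2; mes-1 and 40.6 in mes-1 in the authors' deposited table. The log2 fold change was 0.27 (DESeq2 adjusted p = 0.681), per the authors' deposited table, with an interval of -0.17 to 0.71. The gene trxr-2 (WBGene00014028, ZK637.10), on chromosome III from 8913648 to 8916668, encodes the mitochondrial enzyme. It was about 14 times less abundant per length: the ratio of trxr-1 to trxr-2 RPKM was 14.4 in daf-2; mes-1 and 13.9 in mes-1. The levels of trxr-2 were 3.40 RPKM in daf-2; mes-1 and 2.93 in mes-1, with a log2 fold change of 0.18 (DESeq2 adjusted p = 0.954), in the authors' deposited table. Its interval, -0.78 to 1.14, was the widest of the set. Of its 1630 exonic bases, 109 lie opposite exons of cdc-25.3, whose mean was 0.56 normalized counts in the authors' deposited table.

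The mean of trxr-2, 12.05 normalized counts in the authors' deposited table, corresponds to 2 combinations of whole reads. In the combination of 76 reads, daf-2; mes-1 libraries a, b and c held 16, 13 and 9 reads and mes-1 libraries a, b and c held 19, 10 and 9. Normalized, that is 11.56, 12.16 and 15.41 in daf-2; mes-1 and 10.6, 11.6 and 10.9 in mes-1, with a log2 ratio of means of 0.24 and genotypes that overlap. In the combination of 74 reads, daf-2; mes-1 libraries held 27, 13 and 3 reads and mes-1 libraries held 1, 30 and 0, with a log2 ratio of means of 0.05. The log2 ratio of the deposited RPKM values was 0.22 and the deposited log2 fold change was 0.18, both nearer to the ratio from 76 reads. In both combinations the genotypes overlapped.

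Both glutathione genes of the set had negative values that did not pass the test. The gene gcs-1 (WBGene00001527, F37B12.2) encodes the catalytic subunit of glutamate-cysteine ligase, the rate-limiting step of glutathione synthesis, and lies on chromosome II from 9035500 to 9038243. The RPKM of gcs-1 was 45.2 in daf-2; mes-1 and 53.1 in mes-1, per the authors' deposited table. The authors' deposited table gave a log2 fold change of -0.23 (DESeq2 adjusted p = 0.739), and the interval of -0.65 to 0.19 reached at most 1.14 times the mes-1 level. Its reporter is induced in the intestine when SKN-1 is active, so its value is set beside those of SKN-1 targets below.

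The gene gsr-1 (WBGene00008117, C46F11.2), on chromosome III from 3650888 to 3653136, encodes glutathione reductase, and isoforms for the cytosol and the mitochondria are known in worms. Its RPKM was 65.9 in daf-2; mes-1 and 92.4 in mes-1 in the authors' deposited table. With a log2 fold change of -0.51, or 0.70 times the mes-1 level, it lay farthest from 0 of the 8 genes in the authors' deposited table (DESeq2 adjusted p = 0.174). Its unadjusted p was at most 0.0252 and its interval ran from -0.95 to -0.06, so the difference did not survive adjustment over all genes. Of its 1586 exonic bases, 93 lie opposite exons of C46F11.5, which had a log2 fold change of -0.23 in the authors' deposited table. The RPKM ratio gsr-1 to trxr-1, the reductases of the glutathione and thioredoxin relays, was 1.34 in daf-2; mes-1 and 2.27 in mes-1, and was not tested.

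Neither of the other genes of glutathione synthesis in the wider list was called. The ligase modifier gene gclm-1 (E01A2.1 in the table) was at -0.31 on the log2 scale (DESeq2 adjusted p = 0.791), and the glutathione synthetase gene gss-1 (M176.2) at -0.45 (DESeq2 adjusted p = 0.513), in the authors' deposited table.

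The size of called changes differed with the mean count. Among genes with a mean normalized count from 100 to 1000, which holds prdx-3, trxr-1, gcs-1 and gsr-1, 17.4% were called and the smallest called change was 0.57 on the log2 scale (1.49-fold). Among genes with a mean of 1000 or more, which holds prdx-2, 29.3% were called and the smallest called change was 0.55. From 10 to 100, the range of trx-2 and trxr-2, 7.83% were called and the smallest called change was 0.80. All 7 members lay under these sizes.

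**Figure D4:**
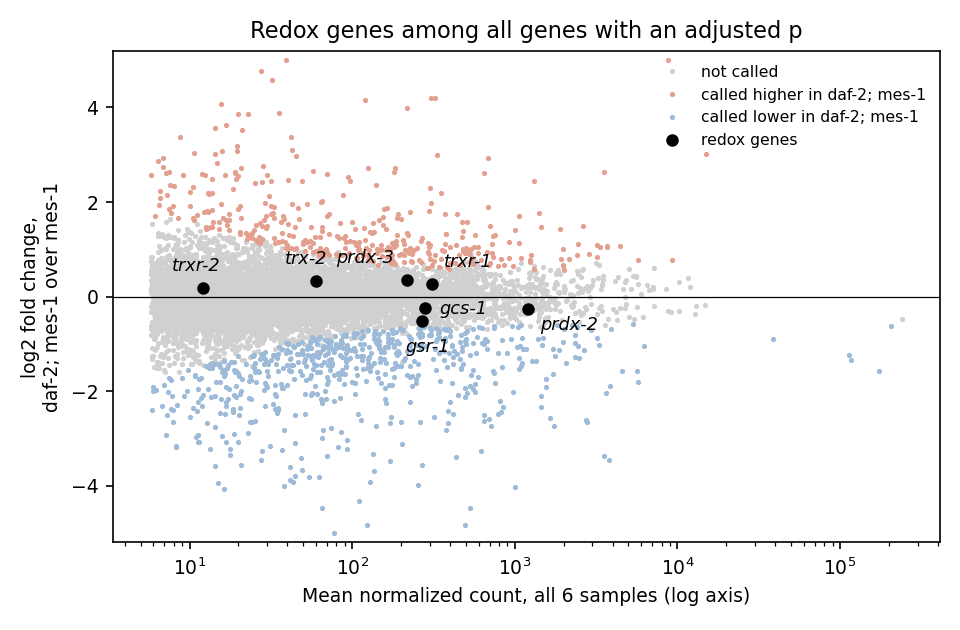
Mean normalized count over all 6 samples (log axis) against the deposited log2 fold change, daf-2; mes-1 against mes-1, for the 9820 genes with an adjusted p; coloured points are called genes and black points are the 7 redox genes with an adjusted p. All 7 lie within the band of genes not called, between -0.51 and 0.36.

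Some genes of the wider thiol redox system, its regulators and SKN-1 targets were called. A list of 68 genes outside the set, grouped by role, matched 66 genes, and an adjusted p was given for 58. Among the 58, 5 were called higher (background 3.92%) and 3 lower (background 6.35%) by DESeq2, and 50 were not called. The list includes 11 genes for SKN-1 and its regulators, which gave 2 of the higher calls (sek-1 and akt-1) and 1 of the lower (sgk-1). The median of the 66 was 0.05, close to the -0.02 of all genes with a fold change. Of the 5 higher genes, 4 have exons opposite another annotated gene or small RNA locus (glrx-3, sqrd-1, sek-1 and akt-1), so 1 is left without such genes, gst-4. Exons of gst-4 overlap dhs-12 on the same strand, and those of idh-1, called lower, lie opposite F59B8.1 and F59B8.5.

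Relatives of the core enzymes were mostly not called, where 10.3% of all genes with an adjusted p were called in either direction. Among 7 further thioredoxin family genes that had an adjusted p, DESeq2 called 0, and txdc-12.1 (Y57A10A.23), a relative of a human thioredoxin-like protein of the endoplasmic reticulum, had the value farthest from 0, -0.62 (adjusted p = 0.131) in the authors' deposited table; it alone of the 7 had an unadjusted p under 0.05. Of 8 further peroxidase and sestrin genes, 0 were called by DESeq2, and the glutathione peroxidase gene gpx-2 (R05H10.5) had 0.47 (adjusted p = 0.213) in the authors' deposited table and the only unadjusted p under 0.05 among the 8. Of 5 glutaredoxin genes, 1 was called: glrx-3 (D2063.3), a glutaredoxin gene whose relatives in yeast and humans act in iron-sulphur cluster handling, rose 1.93-fold (0.95 on the log2 scale, DESeq2 adjusted p = 0.0222), with 44.0 RPKM in daf-2; mes-1 and 24.0 in mes-1 in the authors' deposited table.

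Each list of sulphur and NADPH metabolism held 1 called gene, and 10.3% of all genes with an adjusted p were called in either direction. A single call in so short a list does not set it apart from all genes. Of 8 genes of glutathione and cysteine metabolism with an adjusted p, 1 was called: cth-1, which encodes a cystathionine gamma-lyase that releases cysteine, fell by 2.81 on the log2 scale (DESeq2 adjusted p = 6.96e-11), with 4.50 RPKM in daf-2; mes-1 and 40.3 in mes-1 in the authors' deposited table. The more abundant paralog cth-2 was at 423 RPKM in daf-2; mes-1 and 584 in mes-1, with -0.44 (adjusted p = 0.116) in the authors' deposited table. Reads of such paralogs may be shared, and the sources used here do not say how the authors counted them. Among 4 genes of methionine sulphoxide and sulphide repair, the sulphide oxidation gene sqrd-1 was the 1 called. It rose 6.54-fold (2.71 on the log2 scale, DESeq2 adjusted p = 5.39e-19), with 110 RPKM in daf-2; mes-1 and 15.0 in mes-1 in the authors' deposited table. Of 6 NADPH-supplying genes, 1 was called: idh-1, the gene of the cytosolic NADP-dependent isocitrate dehydrogenase, fell by 1.10 (DESeq2 adjusted p = 1.77e-04), with 63.2 RPKM in daf-2; mes-1 and 137 in mes-1 in the authors' deposited table. The gene gspd-1 of the pentose phosphate pathway was not called, with 0.19 (adjusted p = 0.856) in the authors' deposited table.

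The transcription factor genes upstream of this system were not called either. On the log2 scale skn-1 was at 0.23 (DESeq2 adjusted p = 0.813), its repressor wdr-23 at -0.03 (DESeq2 adjusted p = 0.985) and daf-16 at 0.20 (DESeq2 adjusted p = 0.82), per the authors' deposited table. RNA levels do not show the activity of these factors, which is controlled at the protein. Of the 11 genes for SKN-1 and its regulators, the kinase genes sek-1 and akt-1 were called higher and sgk-1 lower. Their log2 fold changes were 0.94, 1.26 and -1.46 in the authors' deposited table. Over all genes with an adjusted p, 3.92% were called higher and 6.35% lower. Among 9 SKN-1 induced genes with an adjusted p, 1 was called: gst-4, a glutathione transferase gene and widely used SKN-1 reporter. It rose 2.51-fold (1.33 on the log2 scale, DESeq2 adjusted p = 4.98e-04), with 319 RPKM in daf-2; mes-1 and 120 in mes-1 in the authors' deposited table. Another transferase gene, gst-10, had 0.90 with an adjusted p of 0.0596 in the authors' deposited table. The 9 values ran from -0.93 to 1.33 on the log2 scale, with a median of 0.13, and 4 of them were negative. The value of gcs-1, -0.23, lay inside this range, below the 1.33 of gst-4 and 0.90 of gst-10. The difference between the genes was not tested.

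**Figure D5:**
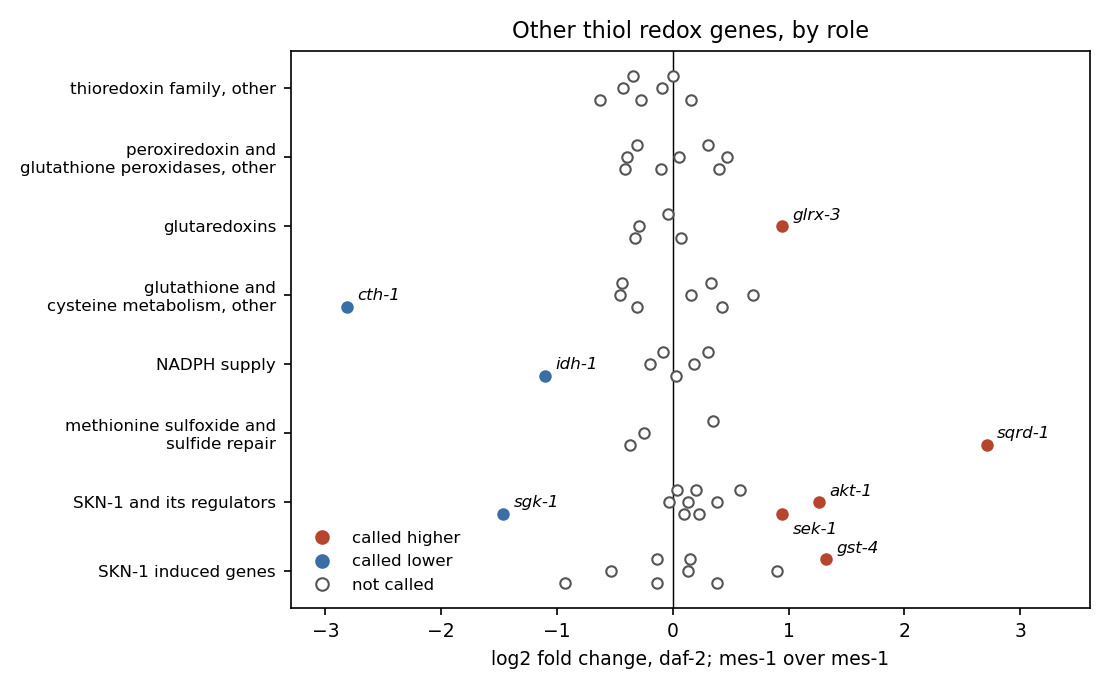
Log2 fold changes from the authors' deposited table, daf-2; mes-1 against mes-1, for the 58 further genes of the thiol redox system, its regulators and SKN-1 targets with an adjusted p, by role (filled, called higher or lower; open, not called). The 8 called genes are named and lie between -2.81 for cth-1 and 2.71 for sqrd-1, and the other thioredoxin and peroxidase groups hold open points only.

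Some tissue markers were called, against shares of 6.35% lower and 3.92% higher over all genes with an adjusted p. Of 10 intestine markers, 6 were called lower and 0 higher, with a median of -1.30. The 4 not called were elt-2 (0.06 on the log2 scale), ges-1 (0.37), cpr-6 (-0.23) and spl-1 (-0.56). The RPKM of the 10 markers summed to 2862 in daf-2; mes-1 and 5184 in mes-1 in the authors' deposited table. Of these sums, asp-1 made up 508 in daf-2; mes-1 and 1956 in mes-1. Of 9 neuron markers 1 was called higher, of 6 body wall muscle markers 1 was called higher, and of 5 hypodermis markers 3 had an adjusted p and 0 were called. A single call in a list this short does not show that a tissue differed. The hypodermis markers rol-6 and dpy-7 each had 1 read over all 6 libraries, too few to compare the genotypes. In the authors' deposited table they were listed at 0.088 and 0.264 RPKM in daf-2; mes-1 and at 0 RPKM in mes-1. Of 10 germline and oocyte markers 5 had an adjusted p and 0 were called, and 9 of the 10 had negative fold changes. Their RPKM summed to 17.5 in daf-2; mes-1 and 57.1 in mes-1 in the authors' deposited table. The markers without an adjusted p were not all low: cbd-1 had a mean of 102 normalized counts and mex-3 of 17.7. Their RPKM was 2.70 and 2.29 in daf-2; mes-1, against 15.3 and 6.62 in mes-1, in the authors' deposited table. With a pseudocount of 0.1 the log2 RPKM ratios were -2.46 for cbd-1 and -1.49 for mex-3, but the deposited log2 fold changes were -0.66 and -0.62. Whether a single library carried these differences cannot be told without values per library. Among the hypodermis and germline markers with an adjusted p, 0 had an unadjusted p under 0.05. The part of these marker values in the values of the redox genes was not tested.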

How the data were processed

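RNA was measured in 6 samples, 3 per genotype. The submitters' processing notes name TopHat2 and DESeq2 and give no version; per the file headers, Cuffdiff2 was also used. Per the file headers, the authors made the signal column with DESeq2, as a mean of normalized counts across the samples. The deposited log2 fold changes and p-values (Benjamini-Hochberg adjusted) also come from DESeq2, and the RPKM values per genotype from Cuffdiff2, per the file headers. Neither the genome build nor the read counter is named in the sources used here.

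A test over samples could not be run, because the table holds 5 value columns and none for a single sample. Calls are therefore the authors' own, with adjusted p under 0.05. The members, gene lists and rules were chosen with earlier results of these data known. Named genes are the members, every called gene of each list group, skn-1, wdr-23, daf-16, gss-1 and gclm-1. The genes txdc-12.1, gpx-2, cth-2, gst-10, prdx-6 and gspd-1, and the partners of overlapping exons, were named after their values were seen. So were the intestine, hypodermis and germline markers that are named singly. With 1 value per genotype, no genes of like pattern were sought.

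Unadjusted p-values were bounded by inverting the adjustment, and the bound gave the 95% intervals, taking the test as normal. The deposited fold changes of genes with few reads can lie nearer 0 than their RPKM ratios. Whole reads were recovered from low means. The table holds 6 recurring means that are no sums of smaller ones, each the worth of 1 read in 1 library, and the sign of the deposited fold change of genes at that mean gives the genotype. All 1566 distinct means under 2 matched a single combination of whole reads. Both steps were tested on simulated data, the recovery of reads only at means lower than that of trxr-2. Symbols and exon overlaps came from Ensembl release 115 (WBcel235), matched by gene ID. Python 3.11.15, pandas 2.3.3, numpy 2.4.6 and scipy 1.17.1 were used. The closing section gives the other settings tried.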

Additional observations from a re-analysis of the deposited data

How the results depend on the processing

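Of the 8 redox genes, 0 were called higher or lower at the looser threshold of an adjusted p under 0.1, as at 0.05. A threshold of 0.01, minimum mean normalized counts of 10 or 100, leaving out genes that overlap on the opposite strand, RPKM ratios and centring all keep the deposited p and so could not add a call. In the 4 settings that change the value of a gene (RPKM ratios at pseudocounts of 0.1, 1 and 5, and centring on the median of all genes with an adjusted p), 32 of 32 values kept their sign. A pseudocount cannot change the sign of an RPKM ratio, so the RPKM settings make 1 check of sign. The median used for centring, -0.03, was nearer 0 than any member value, so centring could change no sign. Sizes could move: trx-1 was at -0.05 as deposited and at -1.21 with a pseudocount of 0.1. The median of the set did not keep its sign. It was -0.01, -0.03 and -0.05 with RPKM ratios, 0.18 with a minimum mean of 10, and -0.23 with a minimum mean of 100, which leaves 5 genes. At a bounded unadjusted p under 0.05, a threshold added after the data were seen, 1 of the 7 redox genes with an adjusted p was lower (gsr-1). Of the 58 genes of the wider list with an adjusted p, 14 passed it, 9 higher and 5 lower, against 18.0% of all genes. Leaving out genes that overlap on the opposite strand kept 41 genes of that list, with 1 called higher and 2 lower. A minimum mean of 100 kept 28 genes, with 4 called higher and 1 lower. With all 66 genes the counts were 5 and 3, as reported. No paired analysis was possible because the table has no values for single samples. For the same reason leaving out replicates, a replicate block, edgeR and a new DESeq2 fit were not run. The few reads of trx-1, and the missing spread of the RPKM values, limit what can be said of single genes.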

Other observations

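The gene trx-3, a further thioredoxin gene with no adjusted p, was examined after its values were seen. Its mean of 5.33 normalized counts in the authors' deposited table corresponds to a single combination of 40 reads. They were 3, 2 and 4 reads in daf-2; mes-1 libraries a, b and c, and 25, 3 and 3 in mes-1 libraries a, b and c. As normalized counts these were 2.17, 1.87 and 6.85 in daf-2; mes-1, and 14.0, 3.49 and 3.63 in mes-1. The genotypes overlapped. Most of the mes-1 reads came from library a, which also held most of the germline marker reads of mes-1. Library a of daf-2; mes-1 likewise held most germline marker reads of its genotype, and its trx-3 count was 2.17, against 6.85 in library c. The part of germline reads in the values of trx-3 was not tested. The means were 3.63 ± 2.79 in daf-2; mes-1 and 7.04 ± 6.02 in mes-1 (SD, n = 3 each).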
